A study of Mus musculus with 6 samples.

Results

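The genes of the MYC, MAX and MXD transcription factor network were examined for chromatin binding of CDK6 in mouse leukemic B cells. The 10 genes Myc, Mycn, Max, Mlx, Mxd1, Mxi1, Mxd3, Mxd4, Mnt and Mga were chosen by name, out of 21911 protein-coding genes, and not by any measured value. A gene was assigned every peak that overlapped its body or one of its promoters, a promoter reaching from 2000 bp before to 200 bp after a transcript start of GENCODE release M21 on mm10. For Myc the 2 Mb beyond the end of the gene were added.

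Chromatin immunoprecipitation with an anti-HA antibody (ChIP-seq) had been performed in BCR-ABL(p185)+ pre/pro B cell lines lacking endogenous CDK6 (Cdk6-/-), which were derived from bone marrow of C57BL/6 mice by retroviral transfer of the p185 form of the BCR-ABL oncogene. HA-tagged wildtype CDK6 (CDK6-WT, n = 2 libraries) or HA-tagged CDK6-K43M, a mutant without kinase activity (n = 2 libraries), was overexpressed in these cells from a retroviral vector, so that all 4 libraries share the oncogene and the loss of Cdk6, and the amount of CDK6 is set by a viral promoter. The comparison bears on whether chromatin binding of CDK6 depends on its catalytic function. The labels do not say whether replicates came from separate cell lines or cultures, so that p-values measure only the spread between these libraries, which may be technical, and 2 Input libraries were not analysed here.

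MYC and MYCN are basic helix-loop-helix leucine zipper proteins that dimerize with MAX, bind the E-box CACGTG and activate genes of growth and proliferation. MXD1, MXI1, MXD3, MXD4 and MNT compete for MAX and recruit SIN3 and histone deacetylases to the same sites, MGA joins MAX in a Polycomb repressive complex, and MLX is a MAX-like partner of MNT, of some MXD proteins and of the glucose-responsive factors MLXIP and MLXIPL. Myc is required for the expansion of precursor B cells and for transformation by BCR-ABL, and in blood cells its transcription depends on a cluster of enhancers located far downstream of the gene. CDK6 has no DNA-binding domain of its own and reaches chromatin together with transcription factors.

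The sequences below show the E-boxes (CACGTG in capitals) that were found in the promoters of the network genes themselves, since the proteins encoded by these genes bind this motif. They were read from the mm10 genome on the strand of the gene, with no base in an annotated exon. The E-box of Max (chr12:76962216-76962281, minus strand) lies 47 bp upstream of the first transcript start, that of Mlx (chr11:101087220-101087276, plus strand) 25 bp, that of Mnt (chr11:74830771-74830836, plus strand) 117 bp and that of Mxd4 (chr5:34187894-34187959, minus strand) 206 bp upstream.
Max: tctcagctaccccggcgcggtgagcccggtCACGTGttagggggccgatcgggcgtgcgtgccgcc
Mlx: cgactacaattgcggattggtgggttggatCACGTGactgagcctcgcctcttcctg
Mnt: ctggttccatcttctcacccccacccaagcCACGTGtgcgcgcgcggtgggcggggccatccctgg
Mxd4: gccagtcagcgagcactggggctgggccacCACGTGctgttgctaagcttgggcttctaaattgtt

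All 4 E-boxes lay under a CDK6 peak in CDK6-WT replicate 1, CDK6-WT replicate 2 and CDK6-K43M replicate 1, and those of Mlx, Mnt and Mxd4 also in CDK6-K43M replicate 2. The share of motifs under a peak among all promoters with CACGTG was not computed, so that this count has no background. At Mlx the motif was 4 to 81 bp from the summit, the position with the most reads of a peak, in the 4 libraries. At Mnt it was 19 bp and 86 bp away from the summit in the CDK6-K43M libraries and 748 bp or more in the CDK6-WT libraries, whose summits lay further upstream. The peak of CDK6-WT replicate 1 was a single wide one with 1 summit (chr11:74829820-74831347). The Mnt summits held 39 and 20 reads in the CDK6-WT libraries and 61 and 14 reads in the CDK6-K43M libraries. Whether the position differs between the variants was not tested. The distance of the motif from the summit was 82 to 153 bp at Max, in the libraries with a peak, and 67 to 218 bp at Mxd4. In the RefSeq promoter table (mm10, 250 bases before to 50 after the start), which has an entry for 9 of the 10 genes and none for Myc, 4 of the 9 held CACGTG, as did 9.18% of all 16522 genes listed.

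The 4 peak lists hold 35189 and 34729 peaks for CDK6-WT and 39797 and 37304 peaks for CDK6-K43M (replicates 1 and 2). Overlapping peaks were joined into 56748 regions. A region was called bound by both variants if at least 3 of the 4 lists had a peak in it, and unique to a variant if both libraries of this variant and neither of the other had one. Because peak significance depends on depth, each peak was ranked by the −log10 q-value within its own list and is given as a percentile, with 100 as the strongest peak. The number of reads under each summit was recovered from the fold enrichment and the −log10 p-value and came out whole for 100% of peaks, with medians of 20, 18, 23 and 15 reads. Promoters of B lineage genes, which served as a check of the cell type, were bound by both variants for 9 of 10 genes. This compares with 1 of 6 T lineage, 0 of 6 myeloid and 0 of 4 erythroid genes, and with 41.5% of all protein-coding genes. The remaining B lineage gene, Rag1, had promoter peaks in the replicate 2 lists alone, at percentiles of 98.26 and 92.25. Expression of these genes was not measured here. In what follows the values of the libraries are given in the order CDK6-WT replicate 1, CDK6-WT replicate 2, CDK6-K43M replicate 1 and CDK6-K43M replicate 2.

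CDK6 occupied the promoters of nearly the whole network irrespective of the variant. A promoter peak was present in 10, 9, 10 and 8 of the 10 genes, whereas 47.2%, 40.3%, 48.7% and 39.5% of all protein-coding genes had one. For 9 of the 10 genes a promoter region was bound by both variants (41.5% of all genes), and for 8 of 10 a promoter region had a peak in all 4 lists (33.4%). All 10 genes had a promoter peak in at least 1 list (52.0% of all genes), and 5 of 10, namely Myc, Mycn, Mxi1, Mxd4 and Mnt, had 2 or more promoter regions bound by both variants (8.06%). No promoter region of a network gene was unique to CDK6-WT (0.224% of all genes) or to CDK6-K43M (0.712%). The 10 genes carried 43 regions in all, 29 in promoters and 14 in gene bodies, of which 20 and 4 were bound by both variants, 24 of 43 in all compared with 40.5% of the 56748 regions. A single region of the 43, an intronic region of Mxi1 in the CDK6-K43M lists, was unique to a variant, as were 1.62% of all regions. A peak in 1 list was the case for 10 of the 43 (32.6% of all regions), a peak in both replicate 1 lists alone for 6 (13.0%) and a peak in both replicate 2 lists alone for 1 (11.0%). These counts are descriptions, as the genes are not replicates of each other.

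The peaks of the network promoters were not unusually strong. The median percentile of the strongest promoter peak over the genes with a peak was 87.3, 61.0, 80.9 and 60.2, and over all genes with a promoter peak it was 78.9, 59.7, 80.4 and 58.3. Both sets of medians were higher in the replicate 1 lists. Myc differed least between libraries, and its lowest value of 91.3 lay above the highest values of Mycn, Mlx, Mxd1, Mxd3, Mxd4 and Mga, while its values overlapped with those of Max, Mxi1 and Mnt. Mycn lay above Mlx, Mxd1 and Mxd4 in the same sense and overlapped with the others.

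**Figure D1:**
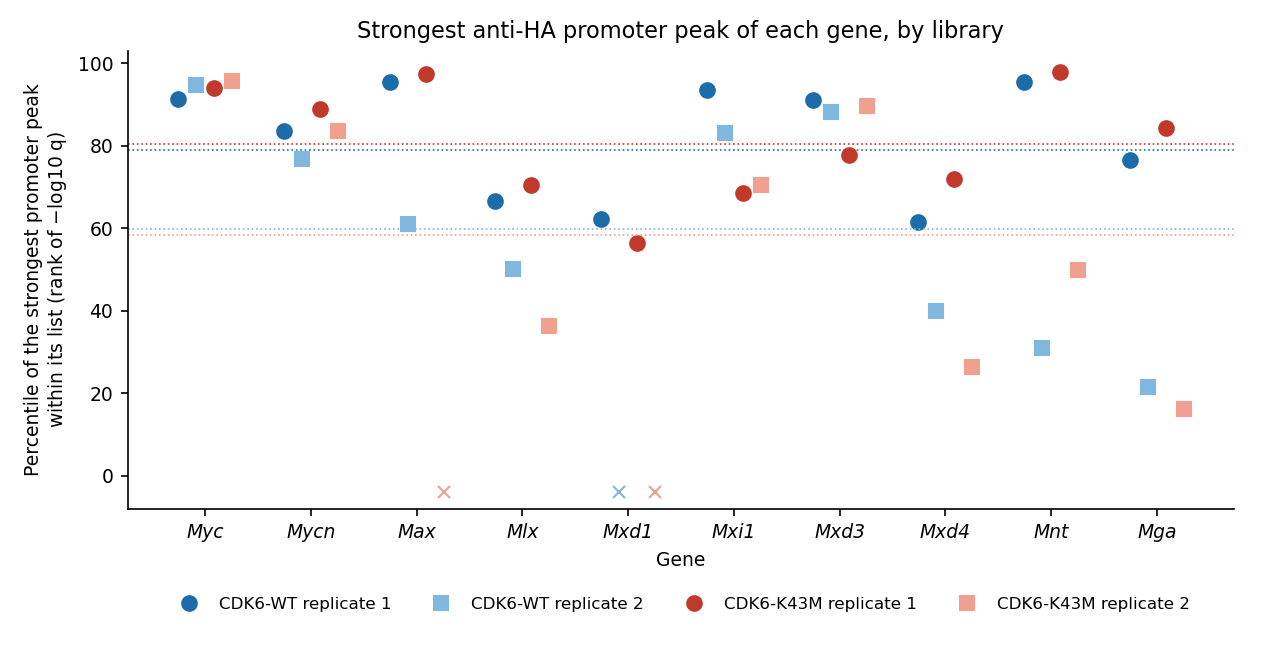
Percentile of the strongest promoter peak of each of the 10 genes (y axis, rank of the −log10 q-value within its list, 100 is strongest) in the 4 libraries (blue: CDK6-WT, red: CDK6-K43M, circles: replicate 1, squares: replicate 2), with crosses below 0 for no peak and dotted lines at the median of all genes with a promoter peak in each list. The 4 values of Myc lie between 91.3 and 95.6, whereas for Mycn, Max, Mlx, Mxd1, Mxd4, Mnt and Mga both replicate 1 values lie above the replicate 2 values or the latter are missing.

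At Myc (chr15:61985391-61990374, plus strand), the gene of the central activator, 5 regions were found and 4 of them had a peak in all lists. Only 0.31% of protein-coding genes had 4 or more promoter regions bound by both variants, a count to which the 6 annotated transcript starts of Myc contribute. The strongest promoter peak ranked at the percentiles 91.3, 94.7, 93.9 and 95.6, with 14.4-fold, 12.8-fold, 15.6-fold and 13.6-fold enrichment over the local background and 37, 35, 49 and 34 reads at the summit. All 4 libraries were thus within the top 10 percent of their list, and the 2 variants overlapped. The means were 93.0 ± 2.41 for CDK6-WT and 94.8 ± 1.17 for CDK6-K43M (SD, n = 2 each), and the difference of 1.76 was within the spread of the replicates (exact two-sided permutation test, p = 0.667; 2 libraries against 2 cannot go below 0.333). The strongest peak lay over the first starts in 3 libraries and in the exonic region in CDK6-K43M replicate 2. Over the first starts alone the difference was −0.245, so that its direction depended on which peak was taken.

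The regions of Myc spanned the upstream sequence and the first part of the gene. The region over the first transcript starts (chr15:61984630-61986070, 1441 bp wide) had percentiles of 91.3, 94.7, 93.9 and 91.6. It held 2 peaks in each library except CDK6-WT replicate 1, where a single peak spanned it. All 4 libraries had a summit 122 to 164 bp downstream of the first start, and all but CDK6-WT replicate 1 had another 290 to 374 bp upstream of it. The downstream peak was the stronger one in CDK6-K43M replicate 1, and the upstream peak in both replicate 2 libraries. The exonic region chr15:61986321-61988373, with summits 1726 to 1750 bp downstream of the first start, had percentiles of 68.2, 89.5, 89.5 and 95.6, and here both CDK6-K43M values were above both CDK6-WT values by a margin of less than 0.1. Among all 16381 regions with a peak in every list, 9.8% showed this order and 5.08% the opposite one. A further region (chr15:61984205-61984595) with summits 963 to 997 bp upstream was weaker, at 46.7, 65.2, 54.1 and 71.4, and was higher in both replicate 2 libraries.

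The most distant promoter region of Myc, chr15:61983322-61983849, had its summit 1878 bp upstream of the first start and percentiles of 81.8, 70.2, 88.5 and 36.2, with 33, 20, 46 and 12 reads at the summit. It is shown because, among the network promoter regions bound by both variants, it alone held the SP1 motif GGGGCGGGG within 100 bp of its summit. Promoter regions not bound by both variants were not searched. The sequence below (chr15:61983463-61983563, mm10, plus strand) has the motif in capitals. The regions upstream of the gene also fall into the promoter window of the transcript Gm37947, so that they cannot be assigned to Myc alone.
Myc upstream summit: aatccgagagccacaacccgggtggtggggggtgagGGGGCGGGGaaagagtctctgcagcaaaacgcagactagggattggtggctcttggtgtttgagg

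Mycn (chr12:12936093-12941914, minus strand), the paralog of Myc that is used in neural and early lymphoid progenitors, had 5 regions, 2 of them in its promoters and bound in all lists. The strongest promoter peak ranked at 83.6, 76.7, 88.8 and 83.5, with 31, 22, 42 and 22 reads. The CDK6-K43M libraries were higher within both replicate numbers, by 5.26 and 6.82 percentile points, but the groups overlapped. The mean difference of 6.04 was larger than the SD of 4.87 for CDK6-WT and of 3.76 for CDK6-K43M (n = 2 each). The exact two-sided permutation test, which does not use the replicate numbers, gave p = 0.667. With 2 libraries per variant no difference can be established. The weaker region within the gene (chr12:12940672-12941159) went the other way, at 32.4, 39.8, 24.0 and 31.3.

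**Figure D2:**
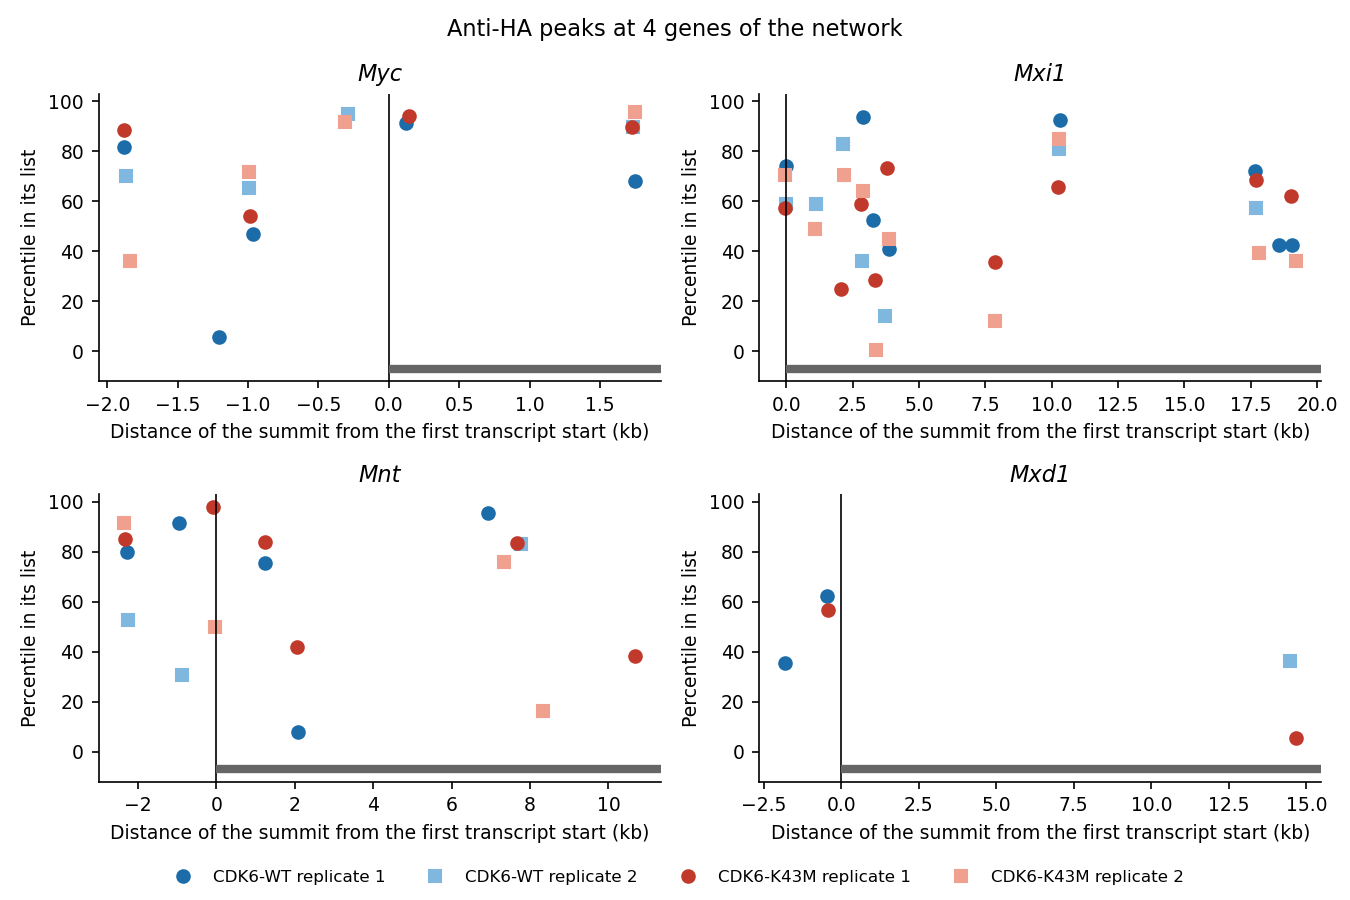
Peaks at Myc, Mxi1, Mnt and Mxd1 by distance of the summit from the first transcript start (x axis, kb, vertical line at the start, grey bar for the gene body) and percentile in the list (y axis), with the strongest peak per region and library (colors: variant, symbols: replicate). Myc and Mxi1 show stacks of peaks from all 4 libraries at shared positions, and the promoter peaks of Mxd1 come from the replicate 1 libraries alone.

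Of the dimerization partners, Max (chr12:76937269-76962201, minus strand) had the most unequal promoter peak. Its single promoter region (chr12:76961803-76962803) ranked at 95.3, 61.0 and 97.5 in the first 3 libraries and had no peak in CDK6-K43M replicate 2. The summits held 46, 18 and 58 reads. A promoter peak in all lists except this one was found for 4.22% of all genes. Mlx (chr11:101087277-101092207, plus strand) had a peak in all lists directly upstream of its start (chr11:101086966-101087356), with percentiles of 66.6, 50.1, 70.5 and 36.2 and 25, 16, 31 and 12 reads. Both replicate 1 libraries were above both replicate 2 libraries, and the difference between variants was −4.98 (exact two-sided permutation test, p = 1).

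Within the MXD family of MAX-dependent repressors, Mxd1 (chr6:86647042-86669161, minus strand) was the one network gene with no promoter region bound by both variants. Its promoter had peaks in the replicate 1 libraries only, at 62.3 for CDK6-WT and 56.5 for CDK6-K43M with 23 and 24 reads, in chr6:86669051-86669783. The absence therefore followed the replicate number and not the variant, as it did in 5.7% of all genes. An intronic region had weak peaks in CDK6-WT replicate 2 and CDK6-K43M replicate 1, at 36.3 and 5.51.

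Mxi1 (chr19:53310518-53375810, plus strand) carried more regions than any other gene of the network, 11 in total with 8 bound by both variants, over 9 annotated transcript starts. Of all genes 2.39% had at least as many regions, and 0.799% had at least as many bound by both. These counts include the gene body, which is 65293 bp long at Mxi1, and the genes were not matched for length. The regions formed a first group with summits up to 3867 bp downstream of the first start, a region inside the gene (chr19:53320465-53321009, over an exon of AC133451.2) with summits 10242 to 10334 bp from the first start, and a group at internal promoters with summits 17680 to 19207 bp from it. The intronic region unique to CDK6-K43M lay between the first group and the region inside the gene. The region at the first start (chr19:53310278-53311433) ranked at 74.0, 58.7, 57.4 and 70.5 and the region over the AC133451.2 exon at 92.3, 80.97, 65.8 and 84.9.

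The strongest promoter peak of Mxi1 ranked at 93.4, 83.0, 68.5 and 70.5, and this was the only one of the 8 genes with a peak in all lists for which the variants did not overlap. CDK6-K43M was lower by 24.9 and 12.5 percentile points within replicates 1 and 2, and the mean difference of −18.7 reached the smallest possible p-value of 0.333 (exact two-sided permutation test). Among 7301 genes with a promoter peak in all lists, 3.62% had both CDK6-K43M values below both CDK6-WT values, and 6.78% had them above. The strongest peak lay in different regions in the libraries, however. In the region that was strongest in CDK6-WT replicate 1 (chr19:53313103-53313572) the percentiles were 93.4, 36.3, 58.7 and 64.0 with 39, 14, 23 and 16 reads, and the variants overlapped. In none of the 5 Mxi1 regions with a peak in all lists were both CDK6-K43M values below both CDK6-WT values. In 1 (chr19:53314053-53314531) both were above, at 40.9, 14.2, 73.3 and 44.9. The mean differences between variants in the 5 regions, in genomic order, were −2.4, −3.53, 31.6, −11.3 and −10.8. The last of these (chr19:53328041-53328826) was lower in CDK6-K43M within both replicate numbers, at 71.9, 57.3, 68.5 and 39.1. The region unique to CDK6-K43M (chr19:53318110-53318508) was weak, with percentiles of 35.8 and 12.3 and 17 and 11 reads.

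Mxd3 (chr13:55325168-55329823, minus strand) had a strong promoter region in every list (chr13:55329872-55330796), at 90.9, 88.1, 77.7 and 89.5 with 36, 30, 32 and 28 reads, and only CDK6-K43M replicate 1 stood lower. The difference of −5.94 was within the replicate spread (exact two-sided permutation test, p = 0.667). Mxd4 (chr5:34173883-34187720, minus strand) was occupied more weakly, at 61.6, 39.8, 72.0 and 26.4 with 34, 16, 45 and 11 reads (chr5:34187557-34188376), and the replicate 1 libraries were above the replicate 2 libraries for both variants. The difference between variants was −1.51 (exact two-sided permutation test, p = 1). The local background used for Mxd4 in both replicate 1 libraries was 5 reads, compared with 2 and 1.57 in the replicate 2 libraries.

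Mnt (chr11:74830920-74845725, plus strand), the broadly expressed MAX partner that opposes MYC, carried 7 regions, 3 of them in its promoters and bound in all lists. The strongest peak overlapping a promoter ranked at 95.3, 30.8, 97.9 and 49.9 with 46, 20, 61 and 14 reads. The low replicate 2 values depended on the promoter limits, since stronger replicate 2 peaks that belonged to the same regions did not themselves overlap the window. When the strongest peak of any region touching the promoter was taken, a choice made after seeing the data, the values were 95.3, 83.0, 97.9 and 91.4. With the peaks in the promoter the variants differed by 10.8 (exact two-sided permutation test, p = 0.667), which was less than the SD of 45.6 between the CDK6-WT libraries. The region around the first start (chr11:74829733-74831649) ranked at 91.5, 30.8, 97.9 and 49.9, and a region with summits 2266 to 2351 bp upstream (chr11:74828153-74829000) at 79.9, 52.8, 85.0 and 91.4. The intragenic promoter region (chr11:74837561-74838815) ranked at 95.3, 83.0, 83.3 and 75.9.

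Mga (chr2:119897228-119969581, plus strand), a scaffold that pairs with MAX and belongs to a repressive complex, had 1 region only in spite of its 12 annotated starts. It lay over the first start (chr2:119896943-119897873), at 76.4, 21.5, 84.2 and 16.2 with 26, 12, 36 and 10 reads. The replicate numbers were far apart and the variants were not, with a difference of 1.25 between variants (exact two-sided permutation test, p = 1).

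Read numbers at the summit compare the variants on a scale that does not involve ranks. For each replicate number the scaled reads of CDK6-K43M were divided by those of CDK6-WT, using the factor by which each library had been scaled against its input in peak calling. As this factor does not equalize the immunoprecipitated libraries, the ratios are read against the medians of all genes, which were 1.05 in replicate 1 (10168 genes) and 0.951 in replicate 2 (7750 genes). The network genes had median ratios of 1.08 (10 genes) and 0.883 (8 genes). Out of the 18 ratios 14 compared peaks of the same region and 4 compared peaks of different regions, namely both ratios of Mxi1, that of Mnt in replicate 1 and that of Myc in replicate 2. At Mxi1 in CDK6-K43M replicate 2 the peak at the first start was tied with one in the region that was strongest in CDK6-WT replicate 2, with 19 reads at both. For Myc the ratios were 1.11 (95% exact conditional binomial interval 0.709 to 1.75) and 1.06 (0.639 to 1.74), and over the first starts alone, a choice made after seeing the data, they were 1.11 and 0.932. Of the 18 intervals 17 included 1. Intervals were not computed for the other genes, so that this count has no share of all genes beside it. The exception was Mxi1 in replicate 1 with 0.558 (0.326 to 0.94), an interval that also lay below the median of all genes of 1.05. In replicate 2 the ratio of Mxi1 was 0.861 (0.446 to 1.64). Within the Mxi1 region that was strongest in CDK6-WT replicate 1, a choice made after seeing the data, the ratios were 0.494 in replicate 1 and 1.24 in replicate 2. The intervals were not corrected for their number. The intervals cover counting error only. Differences within them, such as a ratio between 0.709 and 1.75 for Myc in replicate 1, were not detectable at this depth.

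**Figure D3:**
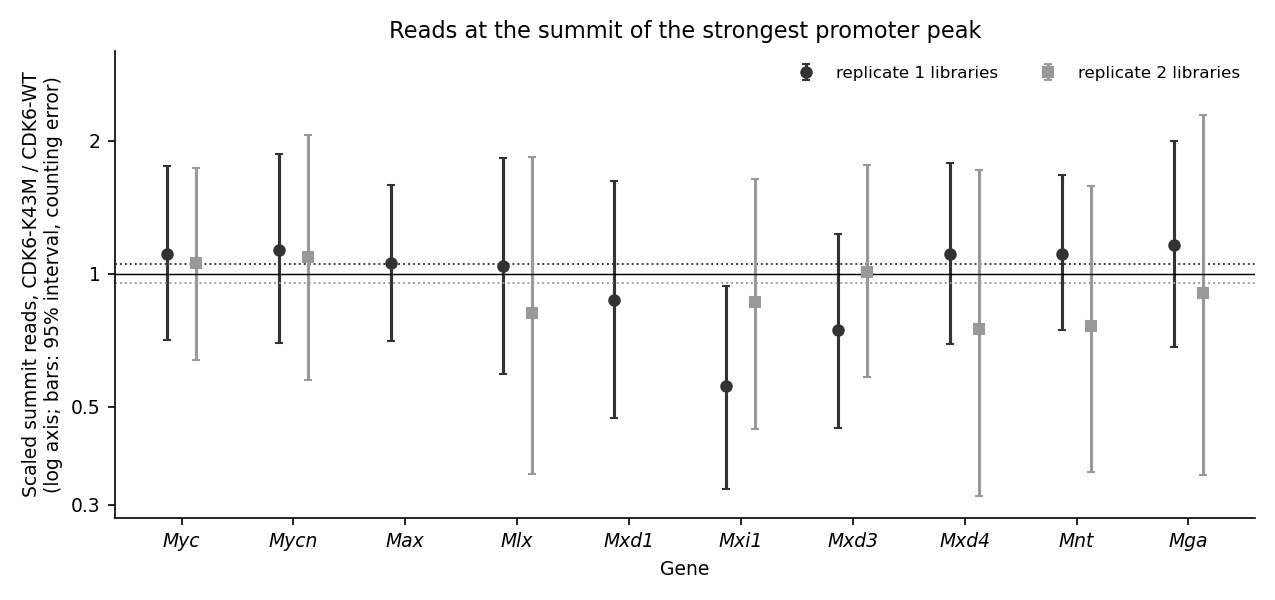
Ratio of scaled reads at the summit of the strongest promoter peak, CDK6-K43M over CDK6-WT (y axis, log scale), for each gene in the replicate 1 libraries (dark circles) and the replicate 2 libraries (grey squares), with 95% intervals for counting error and dotted lines at the medians of all genes (1.05 and 0.951). All intervals except that of Mxi1 in replicate 1 include 1, and Max and Mxd1 have no replicate 2 ratio.

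Across the 18 regions of the network with a peak in all lists, both CDK6-K43M percentiles were above both CDK6-WT percentiles in 3 and below in 1, compared with 9.8% and 5.08% of all such regions. Both replicate 1 percentiles were above both replicate 2 percentiles in 8 of the 18 regions and below in 1, compared with 41.1% and 29.7% of all such regions. By the strongest promoter peak, 5 of the 8 genes with peaks in all lists were higher in the replicate 1 libraries, as were 69.3% of the 7301 genes that could be compared. What the replicate numbers stand for is not given in the sources used here, and the part of this difference in the single values was not tested.

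The 2 Mb downstream of Myc (chr15:61990375-63990374) contained 30, 27, 37 and 28 peaks in 53 regions, 17 of them bound by both variants and 13 with a peak in all lists. Of all 56748 regions 40.5% were bound by both variants, and 16381 had a peak in all lists. CDK6-WT libraries had 28.5 ± 2.12 peaks and CDK6-K43M libraries 32.5 ± 6.36 (SD, n = 2 each). The difference of 4 peaks was 7 within replicate 1 and 1 within replicate 2 and did not exceed the replicate spread (exact two-sided permutation test, p = 0.667). In the 2 Mb upstream of the gene, including its promoter, there were 12, 6, 10 and 8 peaks in 10 regions with 6 bound by both variants. The downstream window as a whole was not dense, as 62.1% of 21489 genes had at least as many regions bound by both variants in the same window. When regions in promoters were left out, the count was 16 for Myc and the median over all genes was 11.

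Binding in this window was concentrated in a short stretch. Of the 17 regions bound by both variants 8 lay within 47.7 kb (chr15:63611124-63658804), 1.621 to 1.668 Mb beyond the end of Myc, in introns of the long noncoding RNA gene Gm41335, and 6 of the 8 had a peak in all lists. Between the ends of this cluster there were 8, 9, 10 and 10 peaks, a difference of 2 peaks between variants within replicate 1 and of 1 within replicate 2. Outside promoters, 8 or more regions bound by both variants within 100 kb were found in 99 of 26330 tiles of the genome (0.376%), at a mean of 0.455 per tile. The stretch was picked as the densest 100 kb of the window, whereas this share is that of single tiles. How many windows of 2 Mb hold a tile as dense was not computed, so that the share does not show the stretch to be unusual. The remaining regions bound by both variants lay in introns of Pvt1, the noncoding RNA gene next to Myc, in introns of Gm41333 and of Gm41335, and between genes.

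**Figure D4:**
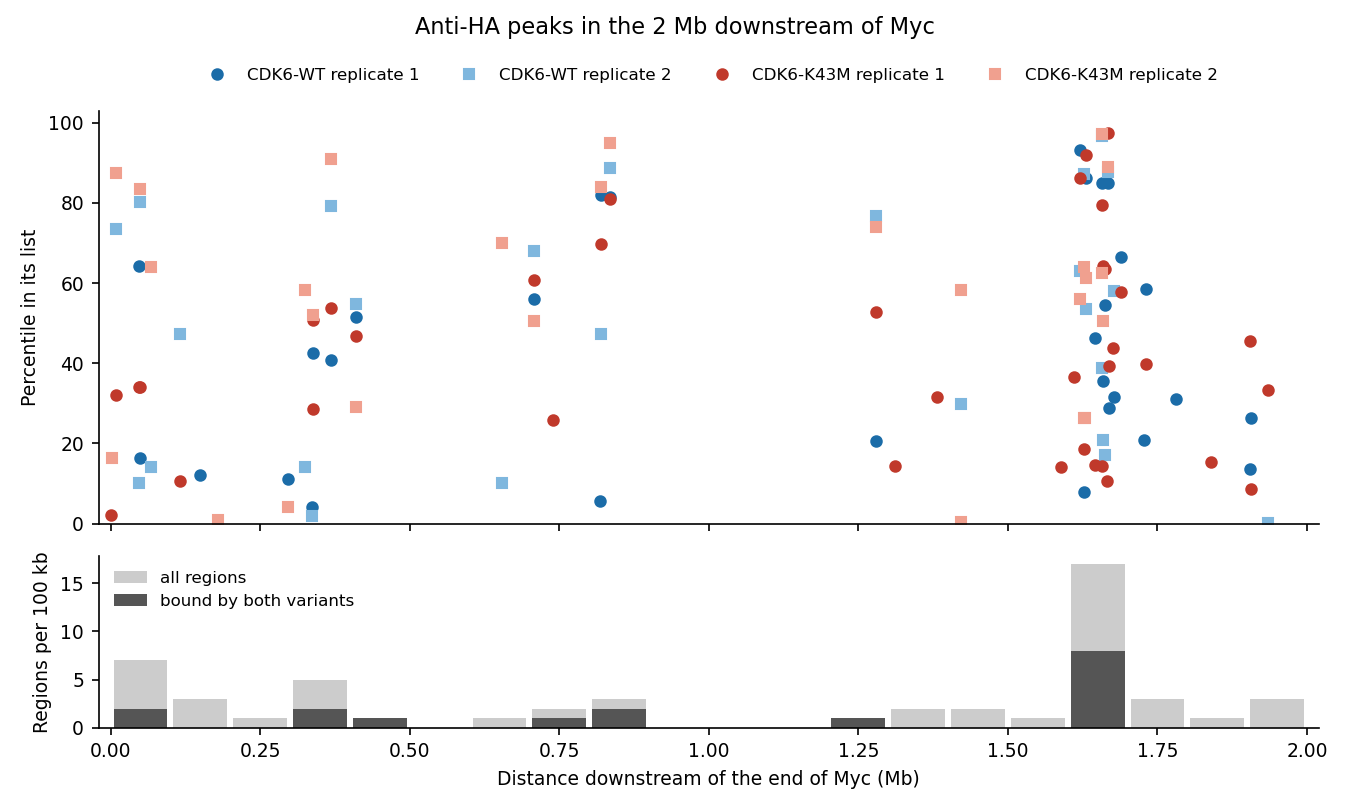
Peaks in the 2 Mb downstream of Myc. Upper panel, percentile of each peak in its list (y axis) by distance from the end of the gene (x axis, Mb) in the 4 libraries, and lower panel, number of regions per 100 kb (light: all regions, dark: bound by both variants). The bin from 1.6 to 1.7 Mb holds 17 regions, 8 of them bound by both variants, and the other bins hold at most 7.

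The 5 strongest regions with peaks in all lists, by mean percentile, were located at 1.668, 1.658, 0.834, 1.621 and 1.63 Mb, and all but the third belonged to the cluster. The region at 1.668 Mb (chr15:63657413-63658804) ranked at 85.1, 87.6, 97.3 and 89.1, with 48, 28, 77 and 26 reads. Both CDK6-K43M values were above both CDK6-WT values, by a margin of less than 2 percentile points. At 1.658 Mb (chr15:63647994-63648593) the percentiles were 84.9, 96.6, 79.4 and 97.3, with 35, 40, 46 and 39 reads, and both replicate 2 libraries were higher. The intergenic region at 0.834 Mb (chr15:62823882-62825179) likewise ranked higher in replicate 2, at 81.5, 88.8, 80.99 and 94.9.

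The regions at 1.621 Mb (chr15:63611124-63611557) and 1.63 Mb (chr15:63619799-63620439) showed the opposite order. They ranked at 93.2, 62.9, 86.2 and 56.1 and at 86.3, 53.6, 91.9 and 61.2, so that regions less than 50 kb apart ranked higher in different replicate numbers. In the whole window both replicate 2 percentiles were above both replicate 1 percentiles in 6 of the 13 regions with peaks in all lists and below in 2 (29.7% and 41.1% of all such regions). CDK6-K43M was above CDK6-WT in 2 of the 13 and below in 1 (9.8% and 5.08% of all such regions).

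No region of the window was unique to CDK6-K43M (1.26% of all 56748 regions), and 2 of the 53 were unique to CDK6-WT (0.359%). The region in an intron of Pvt1 (chr15:62327672-62327866) had percentiles of 4.1 and 1.85, near the bottom of the lists. The other one (chr15:63667552-63667858), 1.677 Mb from Myc in an intron of Gm41335, ranked at 31.5 and 58.1.

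The sequences at the summits of the 3 strongest downstream regions are given as the putative distal sites of the locus (mm10, plus strand, 11 bases around the summit in capitals), for chr15:63658178-63658278, chr15:63648278-63648378 and chr15:62824284-62824384. None of the 3 held an E-box within 100 bp of the summit. The summits of the 4 libraries were 53 bp apart at most in the first, 65 bp in the second and 235 bp in the third region.
1.668 Mb: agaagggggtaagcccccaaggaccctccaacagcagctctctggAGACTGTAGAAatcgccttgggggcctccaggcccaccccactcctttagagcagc
1.658 Mb: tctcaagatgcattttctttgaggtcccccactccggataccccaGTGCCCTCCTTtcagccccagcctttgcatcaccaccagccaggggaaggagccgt
0.834 Mb: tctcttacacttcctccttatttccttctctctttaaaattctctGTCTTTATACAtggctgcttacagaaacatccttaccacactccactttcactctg

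The promoter regions of the network and the downstream regions of Myc differed in median base composition, with ranges that overlapped. Within 100 bp of the summit the 20 promoter regions bound by both variants had a median GC content of 60.2% (47.3% to 78.6%) and a median CpG ratio (observed over that given by the base composition) of 0.842, next to 62.2% and 0.783 for all promoter regions bound by both variants. The 17 downstream regions had 47.8% (35.3% to 54.2%) and 0.139, compared with 50.2% and 0.234 for all distal regions. Motifs were searched on both strands in the same window. CACGTG was present in 2 of the 20 promoter regions, those of Mlx and Mnt (8.21% of all promoter regions), and in 0 of the 17 downstream regions (4.89% of distal regions). The ETS motif CCGGAAGT occurred in 0 of the 20 (7.27% of promoter regions), the SP1 motif GGGGCGGGG in 1 (11.5%), the NFY motif CCAAT in 4 (23.4%), the RUNX motif TGTGGT in 2 (12%) and the NRF-1 consensus in 0 (2.67%). In the downstream regions CCAAT was present in 4 (16.4% of distal regions) and TGTGGT in 3 (28.7%) of 17. A match is a description of the letters and no evidence of binding by the factor.

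Most genes that work with the network were occupied as well. Of 4 relatives 3 had a promoter region bound by both variants, with the highest mean percentiles at Mlxip (83.6) and Mycbp (79.0), whereas Mlxipl, the glucose-responsive partner of MLX in liver and fat, had no promoter peak in any list. Of 17 cofactor genes, which encode coactivators and corepressors of MYC and MXD proteins, 16 were bound by both variants. The strongest were Bptf, a subunit of the NURF remodeling complex (mean percentile 88.7), and Ncor1, a corepressor (87.1). Of 11 genes for MYC turnover 10 were bound by both variants, led by the ubiquitin ligase genes Fbxw7 (93.0) and Skp2 (89.0). Usp7, encoding a deubiquitinase, was the only one of these genes with a promoter region unique to CDK6-K43M in addition to its shared one. Such a unique region was found for 0.712% of all protein-coding genes. Of 20 known MYC target genes 19 were bound by both variants, with the highest ranks at Pa2g4 (96.2) and Nme1 (95.8). All these shares are read against the 41.5% of all protein-coding genes, and the lists were chosen with earlier results of these data known. As at Mxd1, promoter peaks in the replicate 1 lists alone were found at Kat2a, Trim32 and Shmt2, which are named after their values were seen. Of all protein-coding genes 5.7% had this pattern, so that it is not particular to these genes.

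The genes with the most similar ranks to Myc over the 4 libraries, by Euclidean distance of the percentiles of the strongest promoter peak among 7300 genes, were Chd9 (distance 1.97), Atp1b1 (2.48) and Jtb (2.95). Chd9 ranked at 90.9, 93.0, 94.8 and 95.3.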

How the data were processed

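The 4 peak lists deposited by the authors were used as they stand. Per the submitters' notes and the study's methods, the authors used Trimmomatic 0.36 for trimming and BWA 0.7.15 for alignment to mm10, removed blacklisted regions with bedtools, processed alignments with SAMtools 1.3.1 and called peaks in each library separately with MACS2 2.1.0 against input, following crosslinking with DSG and formaldehyde. The deposited columns hold a fold enrichment (ratio) at the summit, the −log10 p-value, the −log10 q-value and the summit offset, and a display score derived from the q-value that was not used. Depth enters through the peak calls; total reads per library are not given in the sources used here. Reads at each summit were solved from fold enrichment and −log10 p within 0.001 and cover counting error only. Peaks of the 4 lists overlapping by 1 bp or more were merged. The merging, classification and read recovery were tested on simulated data.

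The network genes were chosen by name and not by a measured value. Earlier results of these data were known when they and the lists of related genes were chosen. Genes named beyond the network followed a rule: those without a promoter peak, those with a variant-unique promoter region, the highest 2 per list, regions of the Myc window that were strongest or unique, and the 3 genes most like Myc. Each was compared with all protein-coding genes of GENCODE M21. With 2 libraries per variant the exact permutation test over 6 assignments cannot give a p below 0.333. Alternatives were stricter lists, other promoter limits, ranking by fold enrichment, other motif windows and leaving out each library. Analyses used Python 3.11.15, pandas 2.3.3, SciPy 1.17.1 and pysam 0.24.0.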

Additional observations from a re-analysis of the deposited data

How the results depend on the processing

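The count of network genes with a promoter region bound by both variants fell from 9 to 5 with a minimum −log10 q of 10 and to 4 with the top 10000 peaks per list, where the shares of all genes were 17.2% and 12.8%. The count with a peak in all lists fell from 8 to 4 in both. The matching shares of all genes were not computed, so that this count has no background. Under these 2 settings the regions bound by both variants downstream of Myc numbered 5 and 3, and the difference in downstream peaks between variants became −1 and −0.5, each with fewer peaks by construction. A motif window of 200 bp gave 4 genes with CACGTG in place of 2. A wider window holds a motif more often at any gene, and the share of all genes in this window was not computed. The difference in percentile turned to −2.86 for Mga in lists of equal length and to 1.16 for Mxd4 when ranked by fold enrichment; the cause was not tested. Leaving out each library in turn gave differences of −32.7 to 35.2 for Mga, −22.1 to 12.2 for Mlx, −21.4 to 43.04 for Mnt, −11.9 to 6.4e-05 for Mxd3 and −24.3 to 21.3 for Mxd4, so that no direction can be read for these 5 genes, −23.9 to −13.5 for Mxi1, 0.063 to 3.47 for Myc and 2.6 to 9.48 for Mycn. The values of Mxi1 and Myc compare peaks of different regions. Over the first starts of Myc alone the difference was −0.245. At no Mxi1 region with a peak in all lists were both CDK6-K43M values below both CDK6-WT values, and the mean differences there ranged from −11.3 to 31.6. Leaving out each library gave −1.5 to 0.5 for the difference in genes with a promoter peak (−0.5 with all libraries, 0.5 without CDK6-K43M replicate 2). For downstream peaks it gave −0.5 to 8.5, of which −0.5 was without CDK6-K43M replicate 1. The genes with CACGTG at the summit numbered 1 to 2, of which 1 was also without that library. Of 167 alternative values in all 144 were classed as the same. The criterion was the direction, a count within 1.5 times the reported one, or, for the difference in genes with a promoter peak, a shift below the larger replicate SD. Genes that lost a peak under a setting were left out of it, and the values with a replicate block were classed as the same by construction. The count of 144 is therefore no measure of robustness. With the replicate number as a block the differences were the same, as the mean cannot change (4 downstream peaks, p = 0.5 by exact permutation, the smallest that 2 pairs allow). Same-numbered libraries deviated together over 16381 regions (Pearson r = 0.676, a description across regions), but the labels do not say what they share.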
